A study of Mus musculus with 4 samples.

Results

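Transcripts of the SIBLING genes (small integrin-binding ligand, N-linked glycoproteins) were examined in molar teeth of newborn mice. The family comprises Dspp, Dmp1, Ibsp, Mepe and Spp1, and a probe set was taken as a member if the platform annotation named exactly 1 of these 5 genes for it. By this rule 7 probe sets of 4 genes were found among 34945 probe sets that name a single gene, which cover 18193 genes. Dmp1 had 3 probe sets, Ibsp 2, and Dspp and Mepe 1 each. Spp1, the gene for osteopontin, had no probe set under this rule and was not analysed here. The RNA came from 1 pool of molars of both sexes, taken from 60 Swiss Webster pups of 1 to 10 days of age, with no genetic alteration or treatment given in the labels. The pool was hybridised to 4 Affymetrix arrays, which form a single group, so that every SD given here is technical and says nothing of the spread between animals. Control tissues from another series, against which the study set these arrays, are not analysed here. In such a pool, fewer cells of a type and less RNA per cell cannot be told apart, and ages from the first to the last day are averaged.

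SIBLING proteins are secreted, acidic and heavily phosphorylated proteins of mineralised matrix. They carry an integrin-binding motif, bind calcium and collagen, and are thought to control where and how fast mineral crystals form. Odontoblasts, the cells that lay down dentin, make DSPP and DMP1, whereas bone sialoprotein (IBSP) is typical of bone and cementum and MEPE of osteocytes. The genes lie close together on mouse chromosome 5, in the order Dspp, Dmp1, Ibsp, Mepe and Spp1 in the reference gene table.

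Sequences upstream of the transcription start are shown for the 3 measured members that the RefSeq promoter table holds, because these members differed in whether their signal passed background. They are the 250 bases before each start in GRCm38.p6, plus strand, and Dmp1 has 2 annotated starts. Capitals mark matches, on either strand, to 5 short motifs. The core promoter motifs searched were TATAAA, which positions the polymerase, its weaker variant TTTAAA, and the upstream element CCAAT. The other motifs were ACCACA, a core bound by Runt-domain factors, and the homeodomain core TAATTA. The windows are chr5:104197325-104197574 and chr5:104202367-104202616 for Dmp1, chr5:104299037-104299286 for Ibsp and chr5:104325079-104325328 for Mepe.
Dmp1 first start: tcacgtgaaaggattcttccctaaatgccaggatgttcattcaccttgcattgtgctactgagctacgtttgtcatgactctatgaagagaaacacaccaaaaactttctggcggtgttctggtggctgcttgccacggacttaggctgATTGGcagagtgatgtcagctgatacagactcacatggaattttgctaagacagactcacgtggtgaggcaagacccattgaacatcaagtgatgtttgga
Dmp1 second start: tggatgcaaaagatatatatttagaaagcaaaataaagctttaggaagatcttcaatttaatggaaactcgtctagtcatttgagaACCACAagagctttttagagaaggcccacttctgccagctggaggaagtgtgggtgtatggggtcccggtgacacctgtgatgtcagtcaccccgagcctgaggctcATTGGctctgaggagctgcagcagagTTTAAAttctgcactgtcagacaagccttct
Ibsp: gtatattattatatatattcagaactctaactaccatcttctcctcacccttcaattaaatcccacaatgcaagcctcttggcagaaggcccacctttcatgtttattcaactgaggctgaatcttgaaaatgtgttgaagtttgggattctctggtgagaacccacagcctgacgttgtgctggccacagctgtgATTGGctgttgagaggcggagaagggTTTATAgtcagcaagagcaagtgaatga
Mepe: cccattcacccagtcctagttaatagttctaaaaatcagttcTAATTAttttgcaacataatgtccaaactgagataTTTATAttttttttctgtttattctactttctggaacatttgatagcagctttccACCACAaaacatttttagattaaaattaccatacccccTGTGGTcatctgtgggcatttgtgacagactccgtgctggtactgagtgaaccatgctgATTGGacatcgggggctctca

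CCAAT, read as ATTGG, was present in all 4 of these windows and in 33.8% of all 32851 windows of this length. At the second Dmp1 start it ended 53 bases before the start and was followed by TTTAAA, which began 31 bases before it. The Ibsp window had a similar arrangement, with ATTGG ending 50 bases and TTTATA beginning 28 bases before the start. In the Mepe window ATTGG ended 17 bases before the start, TTTATA began farther out, at 173 bases, and ACCACA was found at 2 places, compared with 1 in the window of the second Dmp1 start. TAATTA was found in the Mepe window alone of the 4, and no matches overlapped. Of all windows 12.4% held TATAAA, 12.1% TTTAAA, 14% ACCACA and 4.84% TAATTA. These shares count a match anywhere in a window, so they give no share for the spacing described above. Matches describe the letters of these windows, and the arrays do not show which Dmp1 start was used. Whether the motifs bear on the signals or on the background call was not tested.

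Dspp, Dmp1 and Ibsp gave signals far above background in molar teeth, and Mepe did not pass. The background threshold of an array was set from 86 probe sets for olfactory, vomeronasal and taste receptor genes, at the 95th percentile of their values. This threshold lay between 996 and 1295 signal units, and a gene was called above background if a probe set of it exceeded the threshold on all 4 arrays. By this call 3 of the 4 measured SIBLING genes were above background, where 51.6% of all genes were, and 6 of 7 SIBLING probe sets, where 42.5% of all probe sets were. The limma test at an adjusted p under 0.05 also called 3 genes and 6 probe sets, against 51.0% of all genes and 42.0% of all probe sets. The median log2 signal was 14.64 over the 4 members and 10.69 over all genes. Brightness also depends on probe affinity, so signals of different probe sets do not rank the genes by amount of mRNA.

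**Figure D1:**
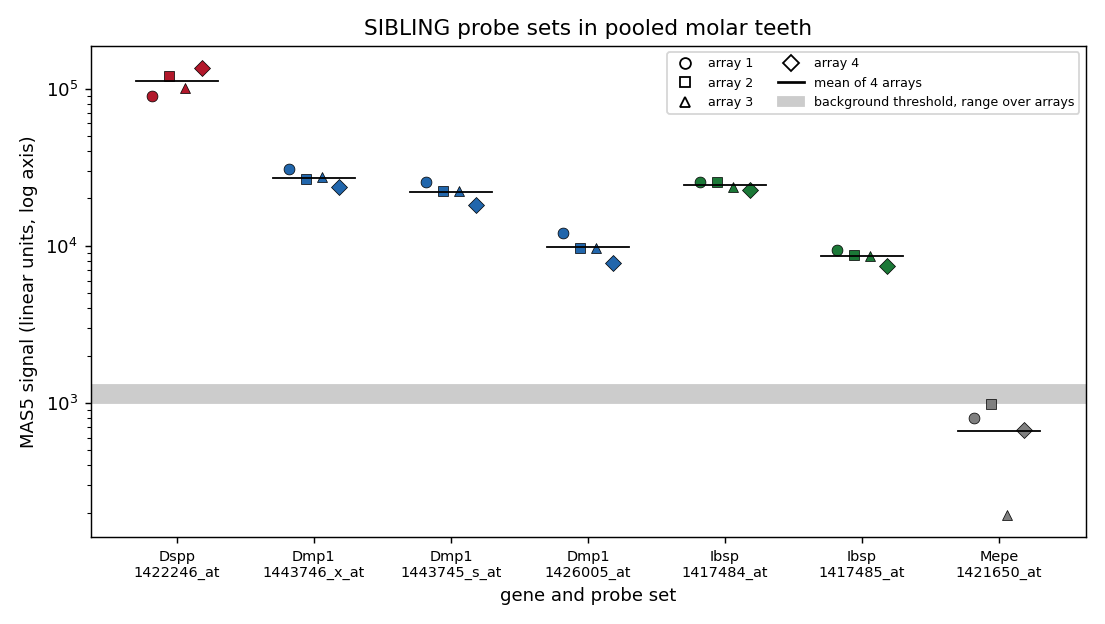
Signal of each SIBLING probe set on each array (log axis, MAS5 signal units), with the 4-array mean as a bar and the range of the background threshold, 996 to 1295, in grey. All 6 probe sets of Dspp, Dmp1 and Ibsp lie above the grey band on every array, and the 4 Mepe values lie below it.

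Dspp encodes a precursor that is cleaved into dentin sialoprotein and dentin phosphoprotein, and its mutations cause dentinogenesis imperfecta. Its probe set (1422246_at) had a signal of 89370 on array 1, 120580 on array 2, 101010 on array 3 and 134525 on array 4, with a mean of 111371 ± 20102 (SD, n = 4 arrays). Values were high on arrays 4 and 2 and lower on arrays 3 and 1, and the highest was 1.51 times the lowest. Every array lay at least 78.0 times above its threshold, and the lowest ratio to the brightest background probe set of the same array was 56.3. On the log2 scale the mean ratio to the threshold was 6.57 ± 0.23, with a limma adjusted p of 5.55e-16 over all probe sets.

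Dmp1 encodes dentin matrix protein 1, which is needed for dentin and bone mineralisation and for the maturation of osteocytes. Its brightest probe set (1443746_x_at) read 30984, 26608, 27420 and 23461 on arrays 1 to 4, a mean of 27118 ± 3091. The second (1443745_s_at) read 25399, 22138, 22302 and 18075, a mean of 21978 ± 3004. Both are annotated with the same expressed sequence and carry suffixes that mark sequence shared between transcripts. The third (1426005_at), without such a suffix, read 11974, 9723, 9720 and 7744, a mean of 9790 ± 1729. All 3 were highest on array 1 and lowest on array 4, and the lowest of all these values relative to its threshold was 6.11 times it. The log2 ratio to the threshold was 4.54 ± 0.32 for the brightest probe set and 3.06 ± 0.41 for the one without a suffix, with limma adjusted p-values of 2.52e-15 and 1.04e-12.

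Ibsp encodes bone sialoprotein, a nucleator of hydroxyapatite that marks bone-forming cells and cementoblasts. The brighter probe set (1417484_at) gave 25262, 25292, 23669 and 22534 on arrays 1 to 4, a mean of 24189 ± 1339. The dimmer (1417485_at) gave 9429, 8743, 8644 and 7434, a mean of 8563 ± 830. Array 4 was lowest for both. The SD of log2 signal of the brighter probe set was 0.081, below the median of 0.17 over the 14840 probe sets above background. Its log2 ratio to the threshold was 4.38 ± 0.25 and that of the dimmer one 2.88 ± 0.30, with limma adjusted p-values of 1.74e-15 and 5.65e-13.

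Mepe encodes matrix extracellular phosphoglycoprotein, whose acidic C-terminal peptide inhibits mineralisation once released. Its probe set (1421650_at) gave 798, 979, 194 and 673 on arrays 1 to 4, a mean of 661 ± 336, and exceeded the threshold on 0 arrays. Array 3 lay lowest, and the highest value was 5.04 times the lowest. The log2 ratio to the threshold was -1.03 ± 1.18, and the one-sided limma p was 0.990 (adjusted p of 1). Low MAS5 signals are noisy, and a value below the threshold does not show that the transcript was absent. With the threshold lowered to the 75th percentile of the background signals, which 65.3% of all genes passed, the mean log2 ratio of Mepe was 0.18 and it was still not above on every array.

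Between arrays 1 and 4, which carry the same pool, Dspp differed in the opposite direction to Dmp1 and Ibsp. Arrays 1 and 4 hold the lowest and highest Dspp signals, so the choice of this pair came from the same values. Not every pair showed it: Dspp and both Ibsp probe sets were higher on array 2 than on array 3. Array 4 minus array 1, on the log2 scale, was 0.59 for Dspp, -0.40, -0.49 and -0.63 for the Dmp1 probe sets, and -0.16 and -0.34 for the Ibsp probe sets. The log2 difference of Dspp minus the brightest Dmp1 probe set was 1.53 on array 1, 2.18 on array 2, 1.88 on array 3 and 2.52 on array 4, a spread of 1.99-fold. Probe sets of the same gene differed by steadier amounts than Dspp and Dmp1 did. The log2 difference between the 2 Ibsp probe sets stayed between 1.42 and 1.60. For Dmp1 it stayed between 0.27 and 0.38 for 1443746_x_at minus 1443745_s_at, which share their annotated sequence, and between 1.37 and 1.60 for 1443746_x_at minus 1426005_at. That last range, of 0.23, was about as wide as the range of 0.24 for Dmp1 minus Ibsp by the brightest probe sets, which ran from 0.058 to 0.29.

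The signals of the brightest probe sets moved with Dspp. The level exceeded by the top 0.1% of signals was 121131, 147026, 132411 and 156550 on arrays 1 to 4, the same order as Dspp. Of the 170 probe sets above background with a mean log2 signal of at least 16, to which Dspp belongs, 147 (86.5%) were higher on array 4 than on array 1, with a median difference of 0.27. In the range from 14 to 15, which holds the brightest Dmp1 and Ibsp probe sets, 66.4% of 1088 were higher on array 4, with a median of 0.094, so these members went against most probe sets of like brightness. After quantile normalisation, which gives all arrays the same distribution of signals, the Dspp difference was 0.34 and that of the brightest Dmp1 probe set -0.45, while the medians of those ranges were 0.041 and 0.035. The directions between arrays 1 and 4 were thus still opposite, with a spread of Dspp minus Dmp1 of 1.73-fold. The pair of arrays and these brightness ranges were chosen after the member values had been seen, and no test between single arrays is possible.

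**Figure D2:**
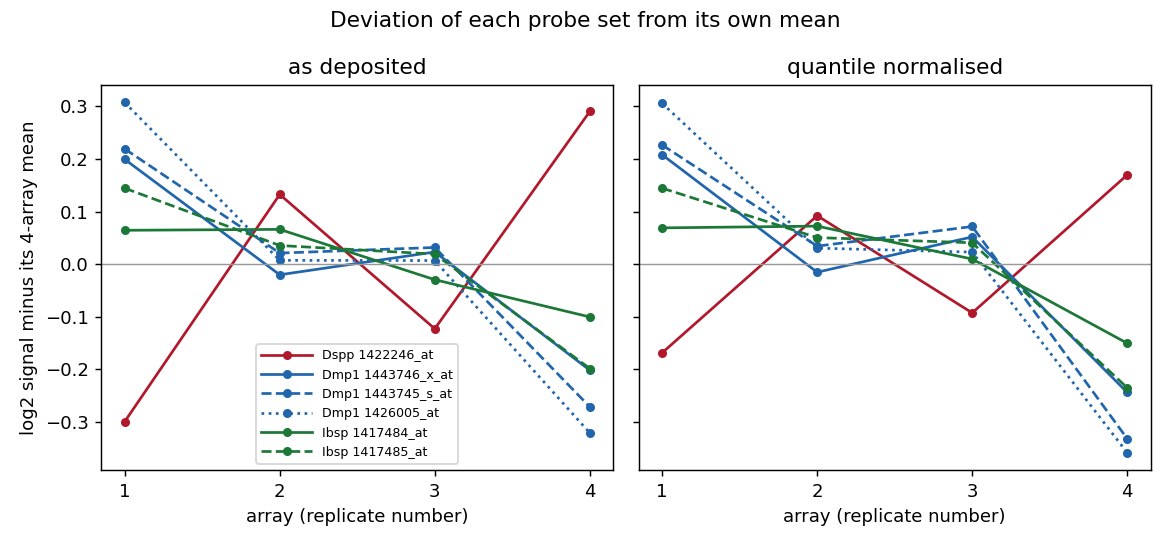
Log2 signal of each probe set minus its own mean over the 4 arrays, as deposited (left) and after quantile normalisation (right). Lines join the values of a probe set, and arrays have no order. Dspp is highest on array 4 in both panels, where the Dmp1 and Ibsp probe sets are lowest.

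The same deviations were used to find the genes most like each member, by the root mean square difference of log2 deviations over 4 arrays among 9376 genes. Nearest to Dspp were Ghr (0.00893) and Ptprd (0.0200), nearest to Dmp1 were Atad2 (0.00804) and Slc25a4 (0.0142), and nearest to Ibsp were Ap4s1 (0.00461) and Psma3 (0.00697). Between Dmp1 and Ibsp the difference was 0.0984, which gave Ibsp rank 794 in nearness to Dmp1 and Dmp1 rank 1747 in nearness to Ibsp. The difference was 0.366 between Dspp and Dmp1 and 0.273 between Dspp and Ibsp. Because the 4 readings come from a single pool, this is a likeness of technical profile.

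Genes next to the cluster were above background for 4 of 5 on the side of Dspp and 0 of 5 on the side of Spp1, counting the nearest genes with a probe set, compared with 51.6% of all genes. Sparcl1, next to Dspp among measured genes and a relative of the family through a common SPARC-like ancestor, had a signal of 22824 ± 1209. Beyond it Nudt9 had 8498 ± 419, Hsd17b11 8091 ± 534 and Klhl8 3735 ± 567, while Hsd17b13, a lipid droplet enzyme of liver, had 1175 ± 294 and passed on 2 arrays. On the far side Thoc2l had 805 ± 407 and passed on 1 array, Zfp33b had 1063 ± 211 and passed on 2, and Abcg3 had 967 ± 92.0 and passed on 1. Signals of Gbp8 and Gbp6 were 43.4 ± 9.50 and 105 ± 66.3, and both passed on 0 arrays. Gbp8 and Gbp6 belong to a family of closely similar genes, so their probe sets may share sequence with other members. The limma test called 0 of the 5 genes on that side at an adjusted p under 0.05 and 0 at an unadjusted p under 0.05.

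**Figure D3:**
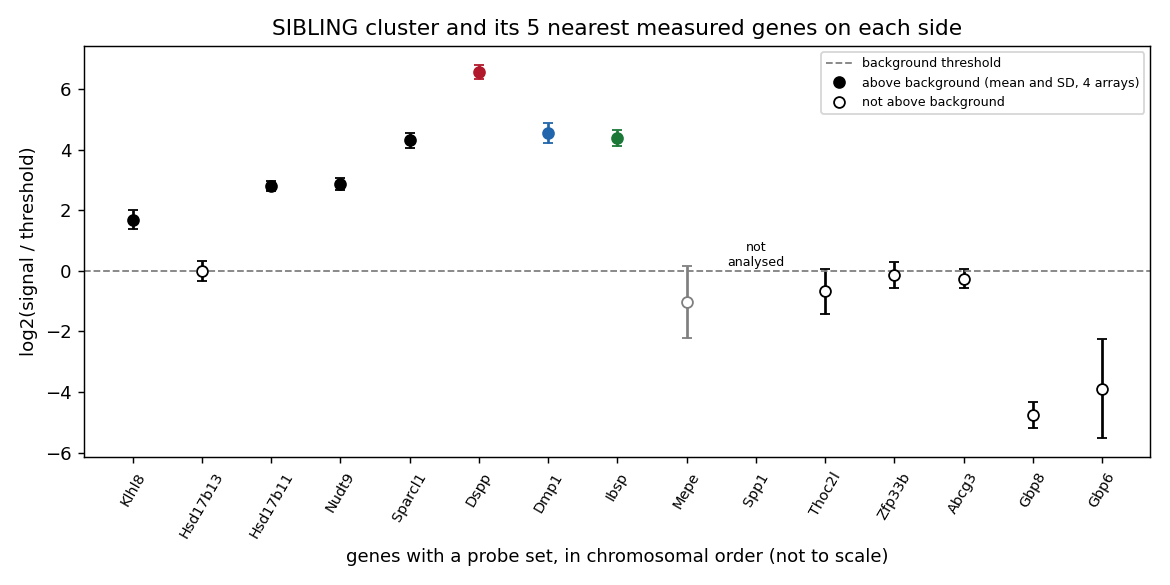
Mean log2 ratio of signal to background threshold, with SD over 4 arrays, for the SIBLING genes and the 5 nearest measured genes on each side, in chromosomal order and not to scale. Filled points, above background on all arrays, run from Klhl8 to Ibsp with Hsd17b13 as the exception, and the points from Mepe to Gbp6 are open.

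Genes that act in the modification of SIBLING proteins were above background for 9 of 12 (75%), compared with 51.6% of all genes. Their median log2 signal was 13.80. Fam20c, the kinase that phosphorylates these proteins in the secretory pathway, had a signal of 16690 ± 1329, and its partner gene Fam20a 13930 ± 1263. Bmp1, a protease that cleaves DSPP and DMP1 into their fragments, had 6790 ± 658. Its relatives Tll1 and Tll2 had 898 ± 90.9 and 119 ± 94.4, and both exceeded the threshold on 0 arrays. Phex encodes a membrane protease that degrades the mineral-inhibiting peptide of MEPE. It had a signal of 34325 ± 2060 by its brightest probe set, and its second probe set gave 2888 ± 382, also above background on all 4 arrays. The matrix metalloproteinase genes Mmp20, which acts in enamel and dentin, and Mmp2 had 52838 ± 2524 and 28460 ± 5762. Mmp3 had 315 ± 295 and did not pass. The enamel protease gene Klk4, and Mmp9 and Acp5, both also made by osteoclasts, were above background.

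Receptor genes for the integrin-binding motif and for osteopontin were above background for 7 of 10 (70.0%), compared with 51.6% of all genes, with a median log2 signal of 12.45. Itgav, the alpha subunit of several osteopontin and bone sialoprotein receptors, had 42587 ± 2532. Cd44, a hyaluronan and osteopontin receptor, had 35614 ± 1262, and Itgb5, a partner of Itgav, 29756 ± 1955. Itgb3, whose product pairs with that of Itgav in osteoclasts, had 727 ± 233 and passed on 0 arrays. Itga5 had 857 ± 184 and passed on 1 array, and Itga9 had 1402 ± 325 and passed on 3. By the median probe set of each gene the count was 3 of 10, near the 39.3% of all genes that passed that way.

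Transcription factors known to act on SIBLING genes or in the cells that make them were above background for all 10 measured genes of 12 listed (100%), compared with 51.6% of all genes, with a median log2 signal of 13.95. Dlx3 and Dlx5, homeobox genes of odontoblasts and osteoblasts, had 23951 ± 1682 and 23012 ± 1459. Atf4, a regulator of osteoblast maturation, had 21213 ± 3985. Sp7 (osterix), required for osteoblast formation, had 9376 ± 626, and Nfic, needed for root dentin, 12463 ± 1146.

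Relatives of the SIBLING genes in the secretory calcium-binding phosphoprotein (SCPP) family, with its SPARC-like kin, were above background for 8 of 12 genes (66.7%), compared with 51.6% of all genes, with a median log2 signal of 15.33. The enamel genes Amelx and Ambn and the matrix gene Sparc had 198666 ± 42644, 167142 ± 28027 and 182924 ± 25344. Each of these 3 was lowest on array 1 and highest on array 4, as Dspp was. The milk casein genes Csn1s1, Csn1s2a and Csn1s2b had 790 ± 369, 236 ± 79.0 and 468 ± 159 and passed on 0 arrays, as did Csn2. The casein gene Csn3 counts among the 8 by a bright probe set (87991 ± 7775), while its other probe set was not above background on any array.

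Markers of both odontoblasts and osteoblasts were above background, so the pool does not assign Dspp, Dmp1 or Ibsp to either cell type. All 6 odontoblast genes (100%) passed, compared with 51.6% of all genes, with a summed signal of 232672 to 311680 over the arrays and a median log2 signal of 14.37. Among them Col1a1 had 179786 ± 33243, Nes 27845 ± 1751 and Wnt10a 18899 ± 1720. By the median probe set of each gene the odontoblast count was 5 of 6, where 39.3% of all genes passed. Whether these genes are particular to odontoblasts within the pool was not tested. All 6 measured osteoblast genes of 8 listed (100%) also passed, with a summed signal of 369267 to 527560 and a median of 14.44. They included Col1a2 at 195252 ± 30587, Alpl at 52629 ± 3023 and the osteoblast membrane gene Ifitm5 at 7142 ± 795, while Bglap and Bglap2 were not analysed here. Col1a1, Dlx3, Sp7, Nfic, Phex, Mmp9 and Acp5 stand in more than 1 list. Col1a1 held most of the odontoblast sum, and Col1a1 with Col1a2 most of the osteoblast sum. These sums therefore do not weigh the cell types against each other.

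Osteocyte genes were above background for 3 of 5 (60.0%), near the 51.6% of all genes, with a summed signal of 57984 to 66235 and a median log2 signal of 13.01. Phex, Pdpn at 17641 ± 1343 and Dkk1 at 8274 ± 876 passed, and all 3 are also expressed outside osteocytes. Sost and Fgf23, the most osteocyte-specific genes of that list, had 625 ± 142 and 562 ± 208 and exceeded the threshold on 0 arrays, as did Mepe. The part of the pool's makeup in the low Mepe signal was not tested.

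Genes of other cells that can express SIBLING genes were also measured. Osteoclast genes were above background for 5 of 10 (50%), near the 51.6% of all genes, with a summed signal of 51272 to 61884 and a median log2 signal of 10.56. Ctsk had 22447 ± 3408, Mmp9 14644 ± 1453 and Acp5 10990 ± 2007. Calcr had 198 ± 281 and passed on 0 arrays, and Dcstamp (872 ± 208) and Ocstamp (679 ± 370) each passed on 1. The osteoclast count was 8 by the lowered threshold and 3 with the highest background signal as threshold, which 65.3% and 41.3% of all genes passed. Macrophage genes were above background for 7 of 8 (87.5%), compared with 51.6% of all genes, with a summed signal of 40389 to 45911 and a median of 11.23. Csf1r had 20413 ± 2425, Lyz2 6475 ± 814 and Mrc1 5689 ± 332, and Itgam at 311 ± 208 did not pass.

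Cartilage genes, not all of them particular to hypertrophic cartilage, were above background for 4 of 7 (57.1%), near the 51.6% of all genes. Their summed signal was 23833 to 27263 and their median log2 signal 11.98. Mmp13 had 8482 ± 705, Sox9 5694 ± 850 and Panx3 5597 ± 768. Col10a1, the defining collagen gene of hypertrophic chondrocytes, had 75.2 ± 17.4 and passed on 0 arrays. Acan (1238 ± 150) passed on 2 arrays and Ihh (855 ± 122) on 0. Without probe sets that carry shared-sequence suffixes the cartilage count was 2 of 6, where 46.6% of all genes passed. The part of osteoclasts, macrophages and cartilage in the SIBLING signals was not tested.

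**Figure D4:**
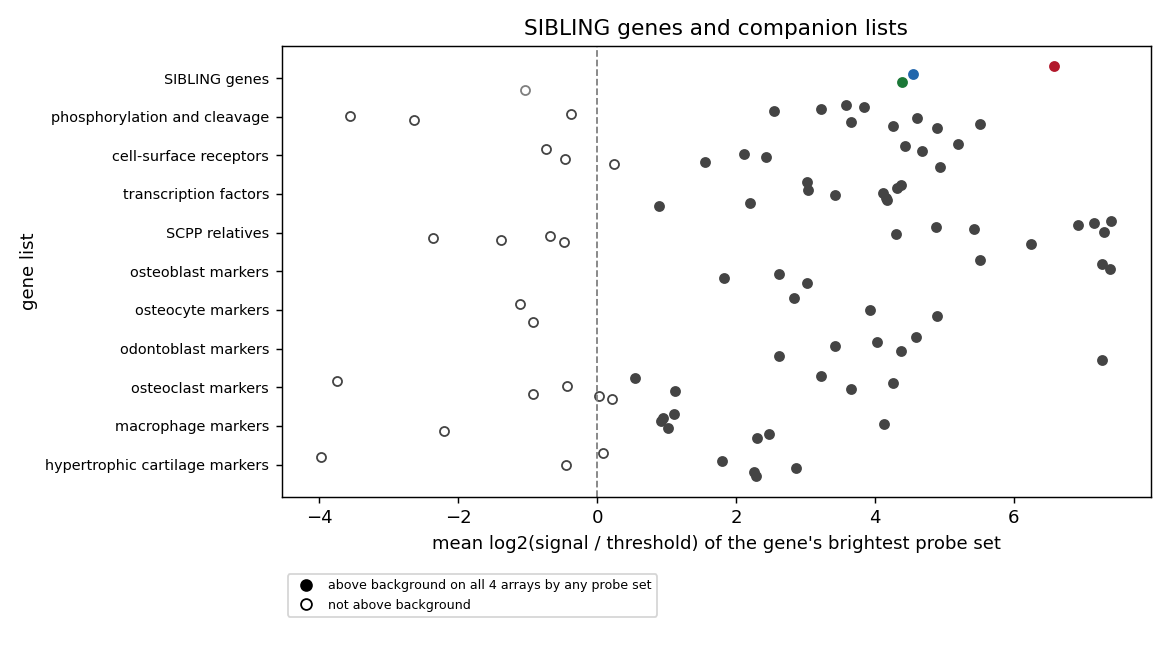
Mean log2 ratio of signal to background threshold of each gene's brightest probe set, for the SIBLING genes and 10 gene lists. Filled points are genes above background on all 4 arrays by any probe set, and every measured transcription factor, osteoblast and odontoblast gene is filled.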

How the data were processed

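The authors deposited 1 intensity value per probe set and array, made with MAS5 per the submitters' processing notes. Its version and settings, and any detection calls, are not given here. On each array the trimmed mean over the 45101 probe sets, leaving out 2% at either end, was 2500.01, which shows a scaling to a shared target. Precision is limited by the 4 arrays of 1 pool. Gene names came from the platform annotation, leaving out control probe sets and the 932 that name several genes. Entrez identifiers of 34741 of 34945 probe sets were found in the GRCm38.p6 gene table, and no symbol changed. The probe set with the highest mean log2 signal stands for its gene.

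The call on all 4 arrays was the main rule, since an exact one-sided sign-flip test on 4 arrays cannot give a p below 0.0625. Adjusted p-values are from a one-sided limma 3.58.1 fit (R 4.3.3, eBayes with trend) of log2(signal / threshold) on all probe sets that name 1 gene, with Benjamini-Hochberg adjustment. It called 51.0% of genes and measures technical spread alone. The members and the 10 gene lists were chosen with earlier results of these data known. The text names every member probe set, per list the 3 brightest genes above background and up to 3 not above in alphabetical order, the 5 measured neighbours on each side, and 2 like genes per member. Fam20c, Fam20a, Bmp1, Klk4, Sp7, Nfic, Wnt10a, Ifitm5, Csn2 and Csn3 were named beyond this rule after their values were seen. Alternatives were other background percentiles, a testis and retina background set, a call on at least 3 arrays, the limma test, quantile normalisation, the median probe set, probe sets without shared-sequence suffixes, a pseudocount of 50 and leaving out each array. The highest background signal as threshold was added after seeing the data.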

Additional observations from a re-analysis of the deposited data

Results flagged for a closer look

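Of 72 sets of 4 log2 values (member probe sets, named genes and list medians), 1 had an array that lay apart from the other 3 by a gap test, where chance gives about 1 in 20, or 3.6. Mmp2, whose product binds bone sialoprotein, read 15.18 on array 4 against 14.59 to 14.68 on the other arrays (probe set 1416136_at). Its other probe set, 1439364_a_at, did not show this, with signals of 30511, 24171, 23545 and 31269 on arrays 1 to 4. None of the 7 SIBLING probe sets was picked out.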

How the results depend on the processing

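The count of 3 of 4 SIBLING genes above background was the same under all 13 alternatives, leaving out each array among them. Without 1 array the mean log2 ratio to the threshold ranged from 6.50 to 6.67 for Dspp, 4.41 to 4.65 for Dmp1, 4.29 to 4.46 for Ibsp and -1.32 to -0.46 for Mepe. Over all settings it ranged from 6.02 to 7.79, 3.06 to 5.76, 3.63 to 5.60 and -1.58 to 0.18. The last value, where the sign of Mepe turned, came with the threshold lowered to the 75th background percentile, and Mepe was still not above on every array. That percentile also raised the osteoclast count from 5 to 8, and the highest background signal lowered it to 3. The median probe set lowered the receptor count from 7 to 3, and probe sets without shared-sequence suffixes lowered the cartilage count from 4 to 2, with fewer genes tested. The number of all genes above background ranged from 7144 to 11877. Of 216 values recomputed, 211 counted as unchanged. Calls and directions had to be kept, and counts to stay within 1.5 times. Ranges and means of log2 signal had to move by less than its SD over the arrays. The range of Dspp, which went from 0.59 to 0.34 with quantile normalisation, counted as unchanged by this rule. No paired analysis was possible because the arrays form 1 group.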

Other observations

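Csn3, the gene for kappa-casein, a milk protein of the SCPP family, had a bright probe set in molar teeth, while the other 4 casein genes measured were not above background. Its probe set 1419735_at gave 79019, 91125, 84828 and 96992 on arrays 1 to 4, a mean of 87991 ± 7775 (SD, n = 4 arrays). The other probe set of the gene, 1451851_a_at, gave 495 to 555 and passed on 0 arrays, so the 2 probe sets disagree on whether Csn3 is above background. Csn2 had 838 ± 125. Csn3 was picked out after its values had been seen, and the reason for the disagreement was not tested.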
